A study of Mus musculus with 5 samples.

Results

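The MHC class II pathway of lung group 2 innate lymphoid cells (ILC2s) was examined through 10 genes, taken by symbol from the 27726 genes common to the 5 libraries: H2-Aa, H2-Ab1, H2-Eb1, H2-DMa, H2-DMb1, H2-DMb2, Cd74, Ciita, Cd80 and Cd86. All 10 were found in each library. They were read in barcodes with 200 or more genes and under 5% mitochondrial counts and were named by symbol, with earlier results of these data known. The questions were which class II genes lie in the same cells, whether Ciita accompanies them, and whether Cd74 increases without H2-Aa after culture.

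Each library is a pool of 5 female wild-type C57BL/6 mice of 4 to 8 weeks, sorted from lung as lineage-negative cells positive for ST2, CD127, Thy1.2 and CD45. The naïve library (1 library) came from mice without tumour. The ta-non-activated libraries (2 libraries, weeks 2 and 3) came from mice bearing a subcutaneous TC1 tumour, a lung epithelial tumour line, and were taken fresh. The ta-activated libraries (2 libraries, weeks 2 and 3) came from tumour-bearing mice of the same design and were cultured for 7 days with IL-2, IL-33 and TSLP at 10 ng/mL each before capture. The lineage cocktail held antibodies to CD11c and CD11b, which mark many of the cells that present antigen by class II. Because mice were pooled, the spread between animals cannot be seen, and week and sample cannot be told apart.

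The libraries held 6389 (naïve), 1823 and 1601 (ta-non-activated, weeks 2 and 3) and 2895 and 3822 (ta-activated, weeks 2 and 3) cells after filtering, with median UMI counts (counted molecules per cell) of 4517, 16090, 4396, 13636 and 12296.5. Pairs of libraries shared 1 to 11 barcodes, at most 0.381% of the smaller library. The week 3 ta-non-activated library stood apart: 579 of its 1495 cells of adequate depth were T-cell-like (3 or more of 7 T cell genes and no UMI of the ILC2 genes Il1rl1 and Gata3), and 49.9% of its cells without class II chains carried 2 or more of 13 ILC2 genes, against 95.95% or more in the other libraries. Results that rest on that library are given with this in view. Levels are CPM (a gene’s summed UMIs scaled by the summed UMIs of the cells read) with exact Poisson 95% intervals, and shares have exact Clopper-Pearson 95% intervals. Both cover counting error alone.

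Class II molecules are heterodimers of an α and a β chain that carry peptides from the endosome to the surface, where CD4 T cells read them. H2-Aa and H2-Ab1 encode the chains of I-A, and H2-Eb1 the β chain of I-E, whose α chain gene is not functional in C57BL/6 mice. Cd74 encodes the invariant chain, which fills the groove of new dimers and guides them to the endosome. H2-DMa pairs with H2-DMb1 or H2-DMb2 to form H2-M, which removes the last fragment of the invariant chain and edits the bound peptide. Ciita encodes the coactivator that switches the class II genes on together by docking on proteins bound to X and Y boxes in their promoters. Cd80 and Cd86 are the costimulatory ligands that CD28 and CTLA-4 bind.

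Promoters are shown because the members were compared as a group under 1 coactivator, and 6 of the 10 lie together. In GRCm38, chromosome 17 holds them within 197134 bases, from H2-DMa (34119541 to 34139101, + strand) through H2-DMb2 (34143307 to 34151555, +), H2-DMb1 (34153072 to 34160230, +), H2-Ab1 (34257689 to 34269419, +) and H2-Aa (34282744 to 34287823, − strand) to H2-Eb1 (34305867 to 34316674, +). Cd74 lies elsewhere. Ciita (10480059 to 10528418, +), Cd80 (38455561 to 38496335, +) and Cd86 (36603869 to 36666081, −) are on chromosome 16. RefSeq promoter windows of 300 bases (250 before and 50 after the start, GRCm38.p6) were found for H2-Aa, H2-Eb1, H2-DMa (2 windows), H2-DMb1, H2-DMb2 and Cd80. The 4 windows below hold a Y box (TGATTGG) or an X box (AACNGATG) on either strand, with the matches in capitals, read 5′ to 3′ on the gene's strand at chr17:34287774-34288073 (−), chr17:34305617-34305916 (+), chr17:34152941-34153240 (+) and chr17:34144999-34145298 (+).
H2-Aa: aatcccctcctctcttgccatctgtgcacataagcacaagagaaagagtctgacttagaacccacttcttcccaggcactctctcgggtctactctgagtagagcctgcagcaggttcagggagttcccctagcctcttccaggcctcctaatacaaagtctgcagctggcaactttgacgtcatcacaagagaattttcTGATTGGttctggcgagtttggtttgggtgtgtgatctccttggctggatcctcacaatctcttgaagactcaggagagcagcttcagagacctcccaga
H2-Eb1: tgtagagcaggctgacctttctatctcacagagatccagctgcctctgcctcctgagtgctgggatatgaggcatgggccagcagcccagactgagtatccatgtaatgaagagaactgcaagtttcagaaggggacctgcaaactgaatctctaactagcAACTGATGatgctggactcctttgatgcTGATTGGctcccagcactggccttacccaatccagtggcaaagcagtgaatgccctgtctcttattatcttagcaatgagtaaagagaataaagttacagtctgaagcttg
H2-DMb1: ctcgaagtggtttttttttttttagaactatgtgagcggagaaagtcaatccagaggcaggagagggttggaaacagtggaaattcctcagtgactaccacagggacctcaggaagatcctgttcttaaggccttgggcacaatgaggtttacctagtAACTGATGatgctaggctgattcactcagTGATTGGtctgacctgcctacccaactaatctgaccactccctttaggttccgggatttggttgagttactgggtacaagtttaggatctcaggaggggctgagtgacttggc
H2-DMb2: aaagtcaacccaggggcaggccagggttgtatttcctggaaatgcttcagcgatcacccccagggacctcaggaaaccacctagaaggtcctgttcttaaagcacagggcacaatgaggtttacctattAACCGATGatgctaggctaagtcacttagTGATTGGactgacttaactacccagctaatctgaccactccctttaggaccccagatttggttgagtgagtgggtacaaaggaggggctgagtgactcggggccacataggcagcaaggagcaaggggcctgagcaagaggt

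H2-Eb1, H2-DMb1 and H2-DMb2 each held an X box followed by a Y box, with 20, 21 and 21 bases between them. Positions are counted from the start that the RefSeq window is built on. For H2-DMa, H2-DMb1, H2-DMb2 and Cd80 that start lies inside the gene span given above, not at its end. The Y box of H2-Eb1 lay 61 to 55 bases before the start, that of H2-DMb1 63 to 57 and that of H2-DMb2 92 to 86. H2-Aa held a Y box 50 to 44 bases before its start and no match to the X letters. The H2-DMa and Cd80 windows held neither. Over all 32851 windows, 7.82% held the Y letters and 2.32% the X letters, while the ordered pair with 10 to 30 bases between lay in 5 windows (0.0152%): those of H2-DMb2, H2-DMb1, H2-Eb1, H2-Eb2 and BC051142. These are matches of letters. They do not show what was bound in these cells.

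The 3 chain genes were low in the fresh libraries and split apart in culture. In such summed levels, fewer expressing cells and less RNA per cell cannot be told apart. H2-Aa stood at 14.4 CPM in naïve cells, 13.5 and 5.96 in ta-non-activated cells of weeks 2 and 3, and 20.5 and 0.162 in ta-activated cells of weeks 2 and 3. H2-Eb1 stood at 13.2, 17, 5.32, 21.1 and 0.340 CPM in the same order. In both genes the week 3 ta-activated library lay far below every other one, with 10 UMIs of H2-Aa and 21 of H2-Eb1 in 3822 cells. H2-Ab1, the partner chain of H2-Aa, stood at 11.7, 19.3, 10.3, 55.6 and 24.7 CPM. Both cultured libraries lay above all 3 fresh ones, and week 3 kept 1529 UMIs of H2-Ab1 beside the 10 of H2-Aa.

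**Figure D1:**
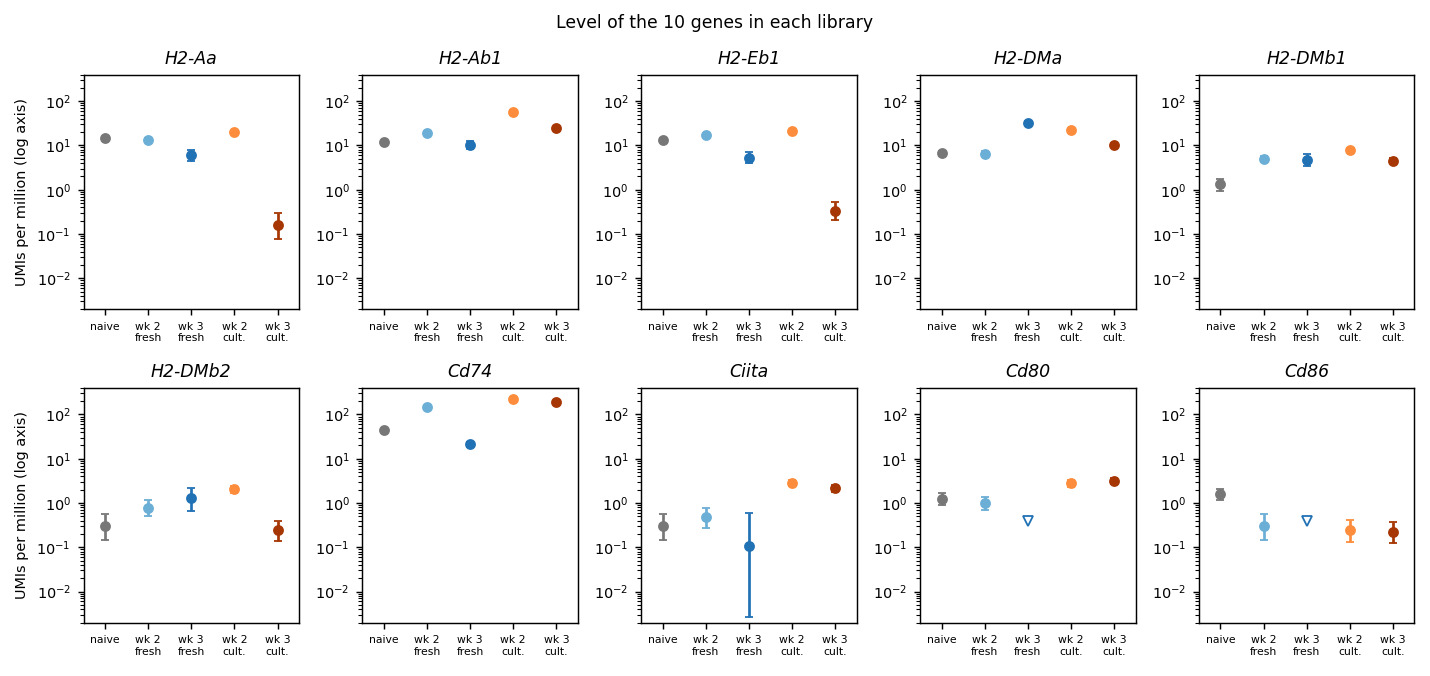
Level of each of the 10 genes in each of the 5 libraries, in CPM on a log axis, with exact Poisson 95% intervals; fresh is ta-non-activated and cult. is ta-activated, and open triangles give the upper limit of a gene with 0 UMIs. H2-Aa and H2-Eb1 drop to 0.162 and 0.340 in the week 3 cultured library, while H2-Ab1 (24.7) and Cd74 (193.8) do not.

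Cd74 gave the most UMIs of the 10 genes in 4 of the 5 libraries. Its level was 43.8 CPM in naïve cells, 144.5 and 21.3 in ta-non-activated cells, and 223.9 and 193.8 in ta-activated cells. The cultured libraries lay above the fresh ones, and the 2 fresh tumour libraries differed from each other more than the cultured ones did. The week 3 ta-non-activated library was the exception, with 305 UMIs of H2-DMa and 200 of Cd74.

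The H2-M genes showed no common pattern. H2-DMa stood at 6.64, 6.47, 32.5, 22.5 and 10.5 CPM, H2-DMb1 at 1.33, 4.94, 4.79, 8.02 and 4.56, and H2-DMb2 at 0.309, 0.782, 1.28, 2.06 and 0.243, in the order naïve, ta-non-activated weeks 2 and 3, ta-activated weeks 2 and 3. Fresh and cultured tumour libraries overlapped in all 3. H2-DMb1 and H2-DMb2 are near-identical neighbours, so reads may be split between them or dropped, and the split is uncertain. The high H2-DMa of the week 3 ta-non-activated library lay mostly in the T-cell-like cells: 57.9 CPM (95% interval 44.8 to 73.5) in 579 such cells against 16.9 (at most 24.0) in the other 916, each thinned to 2000 UMIs. In those same T-cell-like cells H2-Aa was at 1.73 CPM and Cd74 at 4.32, against 17.5 and 56.2 in the others.

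Ciita, the coactivator, was scarce in every library. It gave 10 UMIs in naïve cells (0.309 CPM), 16 and 1 in ta-non-activated cells (0.482 and 0.106 CPM) and 166 and 134 in ta-activated cells (2.89 and 2.17 CPM). Both cultured libraries lay above all fresh ones. Week 3 of culture thus held 0.162 CPM of H2-Aa beside 2.17 CPM of Ciita, whereas week 2 of the fresh cells held 13.5 CPM of H2-Aa beside 0.482 of Ciita.

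Cd80 gave 41, 33, 0, 159 and 196 UMIs, or 1.27, 0.993, 0, 2.77 and 3.17 CPM, and both cultured libraries lay above the fresh ones. Cd86 gave 51, 10, 0, 14 and 14 UMIs, or 1.57, 0.301, 0, 0.244 and 0.226 CPM, and was highest in the naïve library. The 9394957 UMIs of the week 3 ta-non-activated library, with 0 of either gene, allow a level of up to 0.393 CPM.

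Culture was tested across all genes with edgeR's quasi-likelihood test on summed counts, 2 ta-activated against 2 ta-non-activated libraries. With Benjamini-Hochberg adjustment over 12643 genes, 0 genes passed 0.05 (0% of those tested), while 2120 passed an unadjusted 0.05 and DESeq2 called 1020. All 10 members were tested and none passed. Ciita had the largest log2 fold change, 2.77 ± 0.88 (SE, n = 2 and 2; 95% interval 0.47 to 5.07; edgeR adjusted p = 0.26). Cd80 followed at 2.20 ± 1.34 (edgeR adjusted p = 0.45), H2-Ab1 at 1.30 ± 0.64 (edgeR adjusted p = 0.37) and Cd74 at 1.13 ± 0.98 (95% interval -1.45 to 3.71; edgeR adjusted p = 0.58). H2-Aa was at -0.05 ± 1.82 with an interval of -4.84 to 4.74, and H2-Eb1 at -0.21 ± 1.71. The other 4 lay between -0.23 and 0.27. The median over the members was 0.21, beside -0.02 over all genes tested.

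Of the 10 members, 4 (H2-Ab1, Cd74, Ciita and Cd80) were higher in both cultured libraries than in both fresh tumour libraries, and none was lower in both. Over all genes tested, 32.4% were higher in this sense and 20.6% lower, so 4 of 10 was near the background. Among members with UMIs in every tumour library, the weeks disagreed in direction for 5: H2-Aa, H2-Eb1, H2-DMa, H2-DMb1 and H2-DMb2. The same held for 36.1% of all genes tested, a share that also counts changes from 0 UMIs. Counted that way, Cd86 disagreed too, at 0.301 fresh and 0.244 cultured CPM in week 2, and 0 and 0.226 in week 3. H2-Aa was 1.51 times its fresh level in week 2 and 0.0271 times in week 3. H2-Ab1 was 2.88 and 2.40 times its fresh level, and Cd74 1.55 and 9.10 times. The 9.10 takes in the T-cell-like cells of the week 3 ta-non-activated library. In thinned cells of that library, Cd74 stood at 4.32 CPM in T-cell-like cells and 56.2 in the others. In thinned week 3 ta-activated cells that were not T-cell-like, Cd74 stood at 148.1 CPM. Outside the T-cell-like cells, Cd74 was thus still higher in culture, but by less than 9.10 times. With the week 2 ta-non-activated library left out, the log2 fold change of Cd74 was 3.36. That fit sets both cultured libraries against the shallow week 3 library alone, with its T-cell-like cells included. The week 3 ta-non-activated library held 1 UMI of Ciita and 0 of Cd80.

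**Figure D2:**
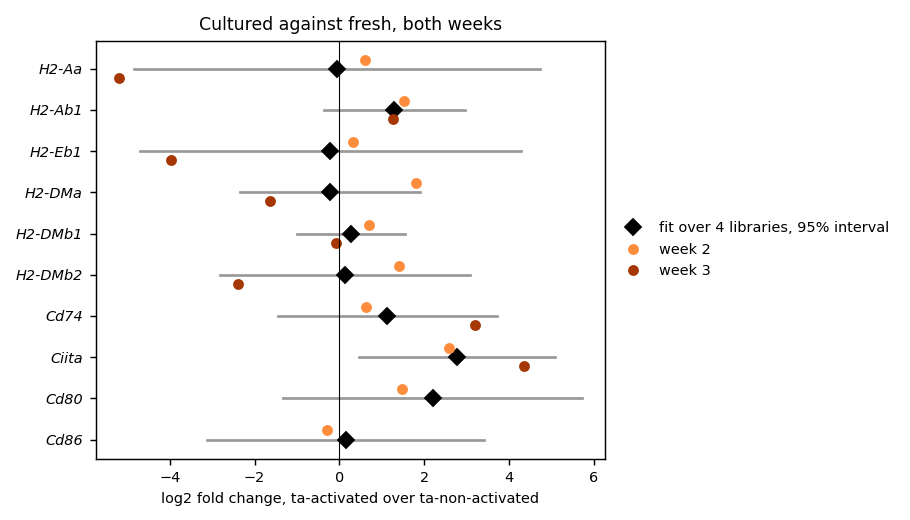
Log2 fold change of each member, ta-activated over ta-non-activated: diamonds and grey lines give the fit over 4 libraries with its 95% interval, and circles the change within week 2 and week 3; no week 3 value is drawn for Cd80 and Cd86, which had 0 UMIs in the fresh library, and that of Ciita rests on 1 UMI there. Every interval but that of Ciita (0.47 to 5.07) includes 0, and H2-Aa and H2-Eb1 move in opposite directions in the 2 weeks.

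The ratio of Cd74 to H2-Aa within a library needs no scaling between libraries. It was 3.05 in naïve cells, 10.7 and 3.57 in ta-non-activated cells, 10.9 in week 2 ta-activated cells and 1198 (95% interval 651 to 2499) in week 3 ta-activated cells. In week 2 the intervals with and without culture overlapped (9.71 to 11.8 and 10.3 to 11.6), and week 3 of culture stood apart from all other libraries. On the log2 scale the cultured mean exceeded the fresh mean by 4.21, with an exact two-sided permutation p of 0.3333, the smallest that 2 against 2 libraries allow.

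Other genes of the pathway were read from lists, and for each list the 2 highest and the 2 lowest log2 fold changes (± SE, n = 2 and 2) are named. No listed gene passed the threshold in either direction in edgeR, and the smallest edgeR adjusted p was 0.24, for Cd274. Of 10 lysosomal protease and protease inhibitor genes tested (median log2 fold change 0.63), Ctss, the protease that trims the invariant chain, was at 53.9 and 14.8 CPM fresh and 205.7 and 219.3 CPM cultured (log2 fold change 2.44 ± 0.77), and Lgmn, an asparaginyl endopeptidase, had 2.27 ± 0.72. The lowest in that list were Ctse (-1.67 ± 1.39) and Ctsc (-0.98 ± 0.47). Of 12 genes that transcribe class II genes (median -0.10), which include the X and Y box binding proteins, Kat2b had 1.13 ± 0.48 and Rfx5 0.84 ± 0.59, and Nfya -0.79 ± 0.40 and Carm1 -0.72 ± 0.59. Of 10 genes of interferon γ signalling to Ciita (median 0.53), Irf2 had 1.15 ± 0.32, and Ifngr1, a receptor chain, -2.30 ± 1.12 and Ifng -1.40 ± 2.25. Ifngr1 was at 32.2 and 419.2 CPM fresh and 45.5 and 44.9 CPM cultured in weeks 2 and 3. Ifng was at 3.61 and 21.9 CPM fresh and 9.43 and 0 CPM cultured. Of the tumour libraries, week 3 ta-non-activated was highest in both, and the part of its T-cell-like cells was not tested.

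The smaller lists were equally spread. Among 3 assembly and editing partners (median -0.17), H2-Oa and H2-Ob, which form the inhibitor of H2-M, had -0.17 ± 0.55 and -1.13 ± 1.14, and Sppl2a, the protease that clears the last stub of the invariant chain, 0.66 ± 0.36. Among 5 surface turnover genes (median 0.23), Cd63 had 2.27 ± 0.94, March8, a ubiquitin ligase, 1.81 ± 0.70, Cd9 -1.45 ± 1.21 and Cd82 0.11 ± 0.73. Among 4 Cd74 partners and MIF receptors (median 0.26), Cd44 had 0.77 ± 0.79, Ddt 0.71 ± 0.35, Mif -0.18 ± 0.44 and Cxcr4 -3.02 ± 1.52. Among 7 other costimulatory ligands (median 0.22), Cd274, which encodes PD-L1, had 1.91 ± 0.36, Cd70 1.90 ± 1.74, Tnfsf4 -0.93 ± 1.71 and Icosl -0.46 ± 0.66. Among 5 receptors (median 0.97), Lag3 had 2.33 ± 1.38, Icos 2.03 ± 0.68, Cd4 0.63 ± 2.12 and Ctla4 -0.75 ± 2.36.

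Cells were then compared at equal depth, each thinned to 2000 UMIs, which left 6147, 1809, 1495, 2822 and 3714 cells. A cell was called class II-positive with UMIs of at least 2 of H2-Aa, H2-Ab1 and H2-Eb1. Such cells were rare: 46 of 6147 naïve cells (0.748%, interval 0.548 to 0.997), 27 and 8 ta-non-activated cells (1.49%, 0.986 to 2.16, and 0.535%, 0.231 to 1.05) and 34 and 1 ta-activated cells (1.20%, 0.836 to 1.68, and 0.0269%, 6.82e-04 to 0.150). Without thinning the shares were 1.55%, 5.43%, 0.750%, 3.04% and 0.131%. The T-cell-like cells of week 3 ta-non-activated served as cells expected to lack these genes: 0 of 579 were class II-positive, with an upper limit of 0.635%, and 1.90% held a UMI of 1 or more chains, beside 1.94% of all cells of that library, at median depths of 5648 UMIs and 3564 in the remaining cells. By chain, H2-Aa lay in 0.345% of these T-cell-like cells and 1.42% of the other cells there. H2-Eb1 lay in 0.173% and 0.98%, and H2-Ab1 in 1.38% and 1.09%, with overlapping intervals for each gene. An H2-Ab1 UMI was thus about as common in both groups, and 2 chains were not seen in the T-cell-like cells. T-cell-like cells of other libraries did hold chains: 4 of 55 in week 2 ta-activated (7.27%, 2.02 to 17.6) and 1 of 11 in week 2 ta-non-activated were class II-positive, against 0 of 255 in naïve and 0 of 16 in week 3 ta-activated.

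The chain transcripts were packed into few cells in the fresh libraries and in week 2 of culture. At full depth, 1% of cells held 80.8% of all chain UMIs in naïve cells, 45.3% and 69.0% in ta-non-activated cells, 50.5% in week 2 ta-activated cells and 20.8% in week 3 ta-activated cells. The fewest cells holding 50% of the H2-Aa UMIs were 10, 18, 2, 11 and 1. A single cell of the week 3 ta-non-activated library held 64 of its 203 chain UMIs. For H2-Ab1 the same number was 84 and 164 cells in the cultured libraries and 15, 21 and 11 in the fresh ones.

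In culture, H2-Ab1 appeared alone in many cells. Cells with H2-Ab1 and neither other chain were 33 of 6147 naïve (0.537%), 21 and 10 ta-non-activated (1.16% and 0.669%), and 159 of 2822 and 148 of 3714 ta-activated (5.63% and 3.98%). Cells with only H2-Aa or only H2-Eb1 were 52, 31, 11, 13 and 1. Both cultured libraries lay above the 3 fresh ones in H2-Ab1-only cells, and their intervals (4.81 to 6.55 and 3.38 to 4.66) did not meet the highest of the fresh (0.720 to 1.77). At full depth, 728 and 772 cultured cells held H2-Ab1 alone, against 54, 32 and 48 fresh cells. Cells with neither H2-Aa nor H2-Eb1 held 16.1% of all H2-Ab1 UMIs in naïve cells, 6.70% and 55.7% in ta-non-activated cells, and 60.7% and 98.95% in ta-activated cells.

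**Figure D3:**
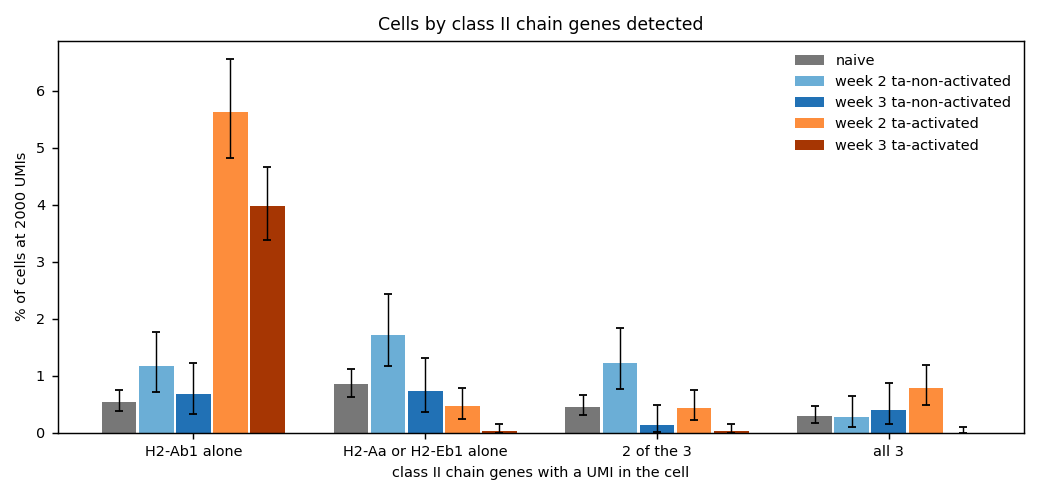
Share of cells, each thinned to 2000 UMIs, in which only H2-Ab1, only H2-Aa or H2-Eb1, 2 of the 3 or all 3 chain genes were detected, per library, with Clopper-Pearson 95% intervals. H2-Ab1 alone reaches 5.63% and 3.98% in the cultured libraries, and all 3 chains reach 0.780% in week 2 of culture and 0 in week 3.

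Where 2 or more chains were present, H2-Ab1 and H2-Aa gave counts of the same order. In such cells at full depth, H2-Ab1 had 0.755 UMIs per UMI of H2-Aa in naïve cells (0.651 to 0.876), 1.36 (1.20 to 1.54) and 1 (0.640 to 1.56) in ta-non-activated cells, 1.08 in week 2 ta-activated cells (0.993 to 1.17) and 2.29 in week 3 ta-activated cells (0.890 to 6.57, 16 and 7 UMIs). In the remaining cells of week 2 ta-activated the ratio was 215 (113 to 471), and in those of week 3 there were 1513 UMIs of H2-Ab1 and 3 of H2-Aa. The classes were set by the chains, so this difference is a description. Counts per gene give no position within the gene, and whether these UMIs come from full-length H2-Ab1 transcripts was not tested.

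Within single cells, Cd74 and H2-DMa followed the chains. Cd74 in class II-positive cells stood at 2152 CPM in naïve (1863 to 2474), 2056 and 3500 in ta-non-activated and 4132 in week 2 ta-activated cells (3663 to 4645), against 11.7, 56.1, 12.3 and 113.7 in cells of the same libraries with no chain UMI. H2-DMa stood at 108.7 CPM (10 UMIs), 92.6 (5 UMIs) and 308.8 (21 UMIs) in naïve, week 2 ta-non-activated and week 2 ta-activated class II-positive cells, against 4.82, 4.91 and 15.9 without chains. The intervals of class II-positive and chain-free cells did not overlap in these 3 libraries for either gene. H2-DMb1 had 5, 4 and 7 UMIs in the same cells, or 54.3, 74.1 and 102.9 CPM, against 0.499, 0.578 and 6.50. Cd80 gave 1 UMI in the class II-positive cells of each of these libraries and Cd86 2, 0 and 0, too few to compare.

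Cells with H2-Ab1 alone stood closer to the chain-free cells in Cd74 in culture than in the fresh libraries. In the fresh libraries they held 272.7 CPM of Cd74 in naïve (161.6 to 431.0) and 1262 and 200 in ta-non-activated cells, 23.3, 22.5 and 16.3 times the chain-free cells. The week 3 value rests on 4 UMIs in 1 of 10 cells (54.5 to 512.1), and 8 of those 10 held 2 or more T cell genes. In the cultured libraries they held 141.5 (103.2 to 189.4) and 206.1 (157.6 to 264.7) CPM, 1.25 and 1.42 times the chain-free cells, whose own level was higher in culture. The interval overlapped that of chain-free cells in week 2 and lay above it in week 3. Of cultured cells with H2-Ab1, 28.7% and 23.5% also held Cd74, against 12.4% and 19.4% of those without. In the fresh libraries the same shares were 51.5%, 85% and 50% with H2-Ab1 and 2.40%, 9.16% and 2.17% without. H2-DMa in the cultured H2-Ab1-only cells was at 15.7 CPM (5 UMIs) and 3.38 CPM (1 UMI), against 15.9 and 8.56 in chain-free cells.

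**Figure D4:**
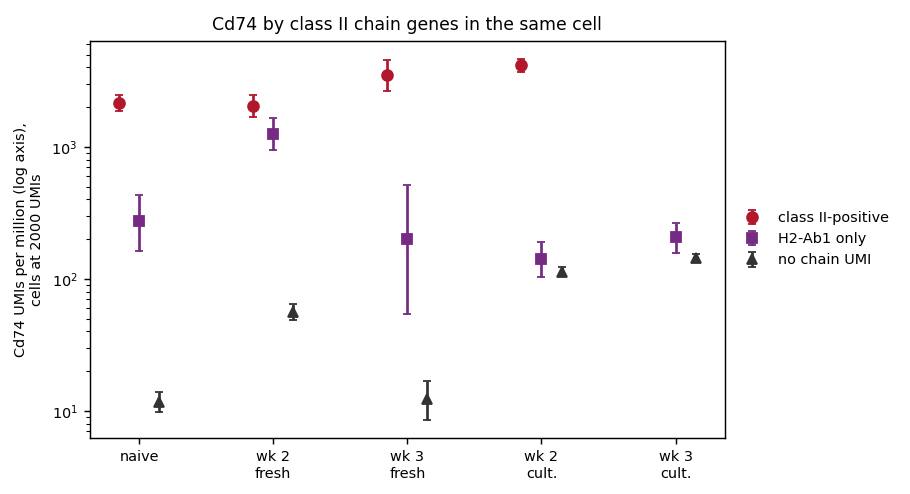
Cd74 in CPM (log axis) in cells thinned to 2000 UMIs, grouped within each library by class II chain genes, with exact Poisson 95% intervals; fresh is ta-non-activated and cult. is ta-activated, and the 1 class II-positive cell of week 3 culture is left out. Class II-positive cells lie between 2056 and 4132, chain-free cells reach 113.7 and 144.8 in culture, and cultured H2-Ab1-only cells (141.5 and 206.1) lie near the latter.

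A Cd74 UMI was found in a larger share of chain-free cells in the cultured libraries. In cells with no chain UMI after thinning, Cd74 stood at 11.7 CPM in naïve (9.86 to 13.8), 56.1 (48.5 to 64.5) and 12.3 (8.60 to 17) in ta-non-activated, and 113.7 (104.8 to 123.2) and 144.8 (136.1 to 153.9) in ta-activated cells. A Cd74 UMI was found in 1.81%, 7.57%, 1.91%, 12.0% and 19.3% of them. Both cultured libraries lay above all fresh ones in level and share. Free RNA can give UMIs in cells that do not make a gene, and its part was not tested. T-cell-like cells, the other type at hand, held Cd74 in 1.96% (naïve), 3 of 11 and 0.864% (ta-non-activated), and 12 of 55 (21.8%, 11.8 to 35.0) and 2 of 16 (ta-activated), at median depths of 4805, 5971, 5648, 9532 and 3964 UMIs. The intervals of these shares overlapped in every library. That cannot decide the matter, since chain-free cells include T-cell-like ones, and groups of 11 and 16 cells are small. In week 3 ta-non-activated, cells that were not T-cell-like, with or without chains, held Cd74 in 3.93% (2.77 to 5.40). T-cell-like cells there held it in 0.864% (0.281 to 2.00), an interval apart. The shares in chain-free cells are not read as the share of cells expressing Cd74. Chain-free cells with 2 or more Cd74 UMIs were 22, 35, 6, 134 and 230. With cells held to no chain UMI at full depth, a stricter choice made after seeing the data, the levels were 8.87, 36.5, 11.6, 79.9 and 134.6 CPM, in the same order. Of all Cd74 UMIs at full depth, chain-free cells held 20.4%, 22.8%, 32.5%, 21.6% and 54.9%. In week 3 of culture, 725 of 3714 thinned cells held Cd74 and 0 held H2-Aa, while 4 of them held H2-Aa at full depth.

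Ciita was seldom seen in the class II-positive cells at 2000 UMIs per cell. After thinning, 0 of 46 naïve, 0 of 27 and 0 of 8 ta-non-activated, 2 of 34 week 2 ta-activated and 0 of 1 week 3 ta-activated class II-positive cells held a Ciita UMI, 2 of 116 in all (1.72%). The pooled share joins libraries with unlike Ciita levels, so it is given without an interval. In week 2 ta-activated the share was 5.88% (0.720 to 19.7) beside 0.681% (0.411 to 1.06) of the other cells, so the intervals overlapped. In the fresh libraries the upper limits of 7.71%, 12.8% and 36.9% leave wide room, and Ciita in those cells was not detectable at this depth. Without thinning the pooled share was 8.91%.

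Taken the other way, cells with a Ciita UMI at full depth were 9, 16, 1, 133 and 128. A UMI of 1 or more chains lay in 2 of the 9 naïve, 9 of the 16 week 2 ta-non-activated and 0 of the 1 week 3 ta-non-activated cells, and in 67 of 133 (50.4%, 41.6 to 59.2) and 35 of 128 (27.3%, 19.8 to 35.9) ta-activated cells. Cells without Ciita held a chain in 3.65%, 7.92%, 4.89%, 28.7% and 20.8%. Cells with Ciita were deeper, with median UMIs of 24338 against 13617 and 16964 against 12398 in the cultured libraries. With chains read after thinning, the shares were 22.2% (2.81 to 60.0) against 2.10% (1.76 to 2.49) in naïve cells, 31.3% (11 to 58.7) against 4.13% (3.25 to 5.15) in week 2 ta-non-activated, 18.8% (12.5 to 26.5) against 6.73% (5.81 to 7.75) in week 2 ta-activated and 3.91% against 4.04% in week 3 ta-activated. The intervals with and without Ciita were apart in the first 3 of these, on 2 and 5 cells in the fresh ones, and overlapped in week 3 culture.

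Cells with Ciita included 2 of 9 with 2 or more chains in naïve cells (22.2%, 2.81 to 60.0, against 1.5% of cells without Ciita) and 6 of 16 in week 2 ta-non-activated cells (37.5%, 15.2 to 64.6, against 5.19%), where all 6 held all 3 chains. In week 2 culture they included 19 of 133 (14.3%, against 2.57%), and in week 3 culture 0 of 128. Cd74 stood at 611.1 CPM with Ciita against 33.2 without in naïve cells (11 UMIs with Ciita) and at 781.2 (25 UMIs) against 119.4 in week 2 ta-non-activated cells. It stood at 597.7 CPM in week 2 ta-activated cells with Ciita against 146.3 without, and at 160.2 against 147.4 in week 3. Among cells with no chain UMI at full depth, it stood at 60.6 (26.2 to 119.4) with Ciita and 80.5 (71.8 to 90.0) without in week 2, and at 123.7 (78.4 to 185.5) and 135.0 (125.6 to 144.9) in week 3. Away from the chains, Cd74 in cultured cells with and without a Ciita UMI differed by less than the counting intervals. At these levels a cell can hold Ciita transcripts and give no UMI, so cells without a UMI are not cells without Ciita.

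The identity of the class II-positive cells was examined with marker lists, counting cells with 2 or more genes of a list after thinning. ILC2 genes marked 93.5% of naïve, 92.6% and 100% of ta-non-activated and 61.8% of week 2 ta-activated class II-positive cells. Chain-free cells of the 3 fresh libraries were marked in 99.25%, 95.95% and 49.9%. Of the 13 ILC2 genes, 9, 8, 4 and 11 were lower in class II-positive than in chain-free cells of these 4 libraries, and 4, 5, 9 and 2 were higher. No class II-positive cell held a UMI of Flt3 or Itgax (dendritic cells), Cd79a (B cells) or Lyz2 (macrophages and monocytes), while other genes of those lists were found. In naïve class II-positive cells 5 of 12 dendritic cell genes gave 31 UMIs (337 CPM, 228.9 to 478.3, against 38.1 without chains), led by Zbtb46 with 15 UMIs, and 2 of 10 B cell genes gave 6 UMIs (65.2 CPM against 62.8). The dendritic cell list summed to 55.6 (3 UMIs), 187.5 (3 UMIs) and 102.9 CPM (7 UMIs) in week 2 ta-non-activated, week 3 ta-non-activated and week 2 ta-activated class II-positive cells, against 25.4, 41.3 and 18.0. The macrophage or monocyte list gave 2 UMIs, in week 3 ta-non-activated, and 0 in the others. The part of such cells in the class II values was not tested. In the naïve library, 3 of 46 held 2 or more dendritic cell genes (6.52%, against 0.283% without chains) and 3 of 46 held 2 or more endothelial genes (6.52% against 0.731%). The endothelial list summed to 120 UMIs in these 46 cells (1304 CPM, 1081 to 1560, against 90.9 without chains), with 8 of 8 genes higher. The part of endothelial cells in the naïve class II values was not tested. Interferon-induced genes marked 10.9% against 1.36% there, and ILC3 or type 17 genes 39.1% (25.1 to 54.6) against 27.4%. T cell genes marked 37.0% against 37.3%. Median UMI counts before thinning were 4668 and 4613 in naïve class II-positive and chain-free cells, and 24216 and 16020 in week 2 ta-non-activated cells. No doublet caller was run, and the part of joined cells in these values was not tested.

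The week 2 ta-non-activated class II-positive cells were mostly cycling, with 2 or more of 12 cell cycle genes in 19 of 27 (70.4%, 49.8 to 86.2) against 7.17% (6.00 to 8.49) of chain-free cells. Mki67, a proliferation marker, was at 425.9 CPM against 11.3. Cd74 in cycling cells of that library was 622.7 CPM against 75.9 in the others, and H2-Aa 61.3 against 4.56. Cycling naïve cells were also higher, with Cd74 at 139.1 CPM (97.9 to 191.7) against 31.7 (28.6 to 35.0) and H2-Aa at 37.6 against 10.5. In week 3 ta-non-activated cells the intervals overlapped, with Cd74 at 43.65 against 34.59 CPM and H2-Aa at 7.94 against 12.1. In the cultured libraries, where cycling was common, Cd74 was 145.0 against 176.9 CPM and 125.7 against 154.5 in cycling and other cells. T cell genes also marked 12 of 27 of the week 2 ta-non-activated class II-positive cells (44.4% against 7.63%). The list gave 48 UMIs there from 3 of its 12 genes, mostly from Trbc1 (203.7 CPM) and Trbc2 (518.5 CPM). Cd3d, Cd3e, Trac, Trdc and Cd4 were at 0. Of the 12 genes, 3 were higher and 6 lower than in chain-free cells.

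The week 2 ta-activated class II-positive cells carried genes of ILC3 and type 17 cells, with 2 or more of 9 in 22 of 34 (64.7%, 46.5 to 80.3) against 4.66% of chain-free cells. Ccr6, a chemokine receptor of such cells, was at 147.1 CPM against 2.68, Il22 at 308.8 against 8.60 and Tmem176a at 823.5 against 73.4. Gata3, the ILC2 transcription factor, was at 58.8 against 671.3. The T cell list summed to 187 UMIs from 5 of 12 genes (2750 CPM, 2370 to 3174) against 729.2 CPM without chains. Most came from Cd3g, a CD3 chain, with 156 UMIs (2294 CPM against 234.7). Of the 12 genes, 3 were higher and 5 lower than in chain-free cells, and 4 of the 34 cells were T-cell-like. Cd3e, Trdc and Cd4 were at 0 and Cd3d and Trac gave 2 UMIs each. Their part in the class II values was not tested, and these cells are given no type name. B cell, macrophage or monocyte, plasmacytoid dendritic cell and neutrophil genes marked 0 class II-positive cells in the naïve, week 2 ta-non-activated and week 2 ta-activated libraries.

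**Figure D5:**
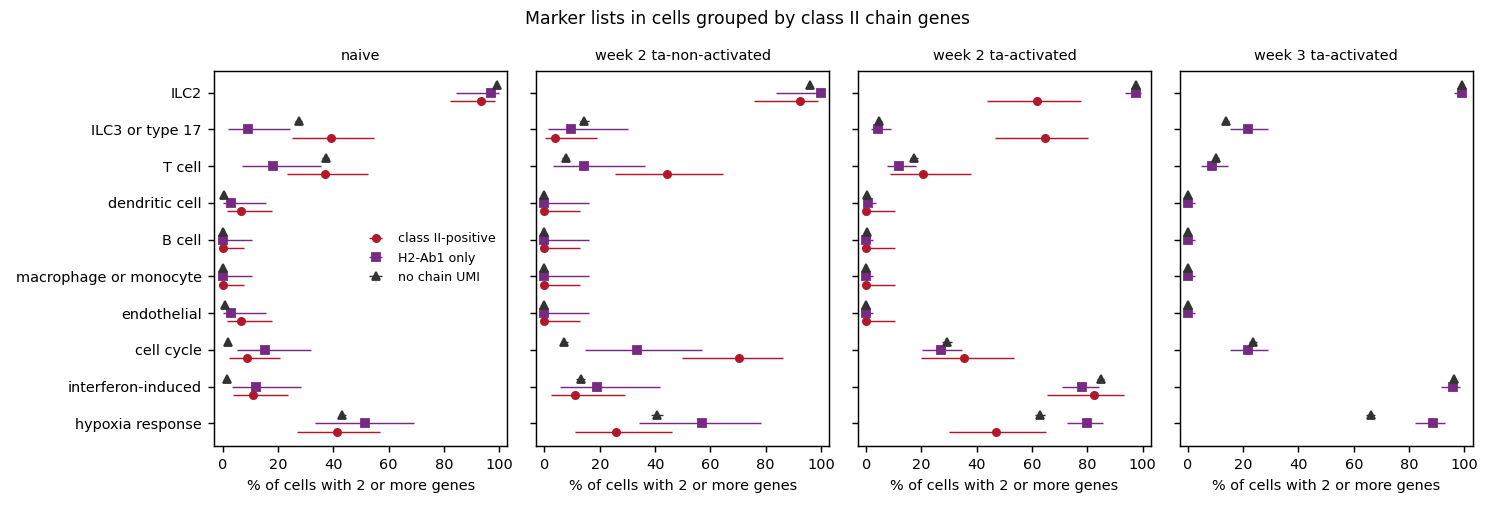
Share of cells with 2 or more genes of a marker list, in class II-positive, H2-Ab1-only and chain-free cells thinned to 2000 UMIs, with Clopper-Pearson 95% intervals, for 4 libraries; groups of under 8 cells are left out. Cell cycle genes stand out in week 2 ta-non-activated class II-positive cells (70.4%) and ILC3 or type 17 genes in week 2 ta-activated ones (64.7%). Hypoxia genes mark 79.9% and 88.5% of cultured H2-Ab1-only cells. That list was written after a ranking of the same cells, and most chain-free cells of those libraries carry it too.

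The genes most like the class II chains were ranked by the median, over the 3 libraries with 20 or more class II-positive cells, of their log2 ratio (CPM plus 1) between class II-positive and chain-free cells, among 2884 genes. The first 10 were Ccr6, Ccnb2, Rrm2, Ifi27l2a, Ifitm2, Cenpe, Birc5, Tnfsf8, Ube2c and Cdk1, of which Ccnb2, Rrm2, Cenpe, Birc5, Ube2c and Cdk1 act in the cell cycle. Ccr6 was first, at 97.8 CPM against 10.9 in naïve cells, 37.0 (2 UMIs) against 0.578 (2 UMIs) in week 2 ta-non-activated cells and 147.1 against 2.68 in week 2 ta-activated cells. Ifi27l2a, an interferon-induced gene, was lower in week 2 ta-activated class II-positive cells (588.2 against 1967 CPM). The 6 cell cycle genes had ratios between -0.81 and 0.85 in week 2 ta-activated cells, and above 3.1 in the other 2 libraries. As the ranking takes the median of 3 libraries, the high ratios in those 2 follow from the choice of genes. In naïve class II-positive cells these 6 genes were at 21.7 to 43.5 CPM, near the 20 CPM minimum of the ranking.

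The genes most like Cd74 in culture were ranked, in chain-free cells of both cultured libraries, by the smaller of the 2 log2 ratios between cells with 2 or more Cd74 UMIs (134 and 230 cells) and with none, among 4332 genes. Selenom led, at 556.0 CPM against 51.7 in week 2 and 91.3 against 20 in week 3. It was followed by Tnfrsf4, Cd70, Il31, Timp3, Ifi211, Ccl5, Fam213a, Trove2 and Ralgps2. Tnfrsf4 (OX40) was at 78.4 against 18.0 and 113.0 against 24.3 CPM, and Cd70, a costimulatory ligand of the TNF family, at 67.2 against 6.30 and 182.6 against 43.6. Il31, an itch cytokine, was at 235.1 against 7.39 and 30.4 against 8.17. The members were left out of this ranking, so it cannot say whether other class II genes go with Cd74. No proteasome or peptide transporter gene was among these 10.

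Cd74 was not highest in the cultured cells richest in interferon-induced genes. When all cells of week 2 ta-activated were split into 3 near-equal groups by the summed level of 12 interferon-induced genes, Cd74 in the chain-free cells of each group was at 196.9 (176.4 to 219.2), 102.2 (87.8 to 118.3) and 46.0 (36.6 to 57.0) CPM from the lowest to the highest group. In week 3 ta-activated cells it was at 171.5, 124.6 and 138.6. Cd74 was highest in the lowest group of both libraries. Depth before thinning moved with the groups, from 21634.5 to 9120 median UMIs in week 2 and from 16110 to 10823 in week 3, and its part in the order was not tested. Over all cells of each group, H2-Ab1 was at 64.8, 48.4 and 40.4 CPM in week 2 and at 29.5, 21.8 and 15.3 in week 3.

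The cultured H2-Ab1-only cells were ILC2-like in their genes, with 2 or more ILC2 genes in 97.5% and 99.3%. A ranking added after seeing the data, over 2357 genes in both cultured libraries, put Mt1, Selenom, Tnfrsf9, Egln3, Ndrg1, P4ha2, Hilpda, Hk2, H2-Q10 and Mir155hg nearest to them. A list of 22 hypoxia response genes written after that ranking was therefore not independent of it. It gave 2 or more genes in 79.9% of H2-Ab1-only cells against 63.0% of chain-free cells in week 2 and in 88.5% against 66.1% in week 3, with 18 and 20 of the 22 genes higher. Egln3, an oxygen sensor of the prolyl hydroxylase family, was at 125.8 against 50.8 and 125.0 against 27.8 CPM, and Bnip3, a mitophagy receptor, at 314.5 against 151.4 and 266.9 against 107.6. Hilpda, a lipid droplet protein, was at 138.4 against 60.2 and 135.1 against 56.7. The fresh H2-Ab1-only groups were small (33, 21 and 10 cells), and only 13, 10 and 5 of the 22 genes gave a UMI in them. There 8, 9 and 4 of the 22 were higher. A gene without a UMI cannot be higher, so the fresh counts cannot be set against those of culture. Neither the fresh nor the cultured counts have a share over all genes beside them. The cultured H2-Ab1-only cells were also deeper before thinning, with medians of 20917 against 13521.5 and 16208.5 against 12434.5 UMIs, and the part of depth was not tested.

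Neighbouring genes on chromosome 17 were read beside H2-Ab1. Psmb9, Tap1, Psmb8, Tap2 and Brd2, chosen after seeing the data, were higher in H2-Ab1-only than in chain-free cells for 2 of 5 genes in week 2 and 1 of 5 in week 3 of culture. In class II-positive cells 5 of 5 were higher in the naïve, week 2 ta-non-activated and week 2 ta-activated libraries and 4 of 5 in week 3 ta-non-activated. The share of all genes higher in the same cells was not computed, so these counts cannot show an effect of the region.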

How the data were processed

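Gene counts (UMIs per gene and cell) were measured by 10x 3′ single-cell RNA-seq in 5 libraries. The authors deposited raw count matrices made with Cell Ranger, aligned to GRCm38. The header of the naïve matrix names version 6.0.0 and the others 3.0.2, so a difference from the naïve library cannot be told apart from that of the software, and no test was run on it (1 library).

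Barcodes with 200 or more genes and under 5% mitochondrial counts were kept, no doublet caller was run, and total UMIs per library before filtering ranged from 9910201 to 71126524. For levels per cell, each cell was thinned to 2000 UMIs (seed 1) and shallower cells were left out. Summed counts of 2 ta-activated and 2 ta-non-activated libraries were tested with edgeR 4.0.16 (quasi-likelihood, TMM, filterByExpr, Benjamini-Hochberg threshold 0.05) in R 4.3.3. DESeq2 1.42.0, leave-one-out fits, library totals without TMM, no filter, the replicate block, other cell filters, other thinning and other definitions of a class II-positive cell were tried as alternatives. The labels do not say that a week marks a shared batch, so p-values measure the spread between these pooled samples. Rankings used log2 of CPM plus 1 and a minimum of 20 CPM in the cells of interest (50 for the H2-Ab1 ranking), and named the first 10 genes that are no member. For the pathway lists, the 2 highest and 2 lowest log2 fold changes of each were named. Some items are not reported here. Promoters and their coordinates came from RefSeq (GRCm38.p6). The members, lists and tests were chosen with earlier results of these data known. The test was tested on simulated data with the same spread for all genes, which does not show how it performs on these libraries. Intervals and limits cover counting error alone.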

Additional observations from a re-analysis of the deposited data

Results flagged for a closer look

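For 5 genes the cultured library lay above the fresh one in week 2 and below it in week 3, and the difference between the weeks was not tested, since each week has 1 library a condition. The week 2 log2 change minus the week 3 log2 change was 5.80 for H2-Aa, 4.28 for H2-Eb1, 3.79 for H2-DMb2, 3.43 for H2-DMa and 0.77 for H2-DMb1. For H2-DMb1 the week 3 change was -0.07, close to none. The week 3 fresh level of H2-DMa moved with the T-cell-like cells of that library, whose part in the difference was not tested.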

How the results depend on the processing

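The number of genes past 0.05 was 0 in edgeR and 1020 in DESeq2, and 0 to 1646 with 1 library left out (1646 without the week 2 and 513 without the week 3 ta-non-activated library). A lone library in an arm is assumed to vary like the others. The log2 fold change of Cd74 ran from 0.288 to 3.36 with 1 library left out, and that of H2-Aa from -6.00 to 0.94. H2-Aa was at 0.072 with library totals and 0.052 with all 5 libraries in the fit. The log2 ratio difference ran from 0.825 to 7.60, and 0 to 2 other members passed with 1 library left out. The median share of class II-positive cells was 0.379% thinned to 1000 UMIs, 1.55% unthinned, 0.293% with all 3 chains and 4.04% with 1 or more. The median Cd74 level in chain-free cells was 85.3, 37.4 and 117 CPM under the first 3 of these, and 36.5 with no chain UMI at full depth, an alternative chosen after seeing the data. The pooled Ciita share was 8.91% unthinned. H2-DMa turned to 0.21 without T-cell-like cells, and H2-DMb2 to -0.51 under the replicate block, -0.063 with all barcodes, -0.095 at 10% mitochondrial counts and -0.69 without cells of 2 or more chains. With 1 library left out, 5 log2 fold changes changed sign, running from -5.15 to 1.11 for H2-Eb1 (also 0.77), -0.90 to 1.12 for H2-DMa (also 0.26), -0.17 to 0.65 for H2-DMb1, -2.12 to 0.98 for H2-DMb2 (also -0.058) and -0.60 to 6.36 for Cd86, the last against a library with 0 UMIs. The causes were not tested. Deviations of same-week libraries correlated at -0.06 over 12643 genes, and the labels do not say whether weeks share mice or sort days, so the weeks were not paired. The replicate block gave 0 calls, 1505 genes at an unadjusted 0.05, and log2 fold changes of 1.80 for Cd74 and -2.19 for H2-Aa. The low depth of the week 3 ta-non-activated library limits every value that rests on it.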
